A study of Mus musculus with 6 samples.

Results

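Immediate early genes of the AP-1, Egr and related families were followed in atrioventricular canal regions of the embryonic mouse heart. The 10 genes were Fos, Fosb, Jun, Junb, Jund, Egr1, Egr2, Ier2, Atf3 and Nr4a1, chosen by symbol. The table of the study held rows for 8 of the 10 among its 18810 genes, and Fosb and Egr2 were not analysed here. The groups were 3 Scx-/- embryos, null for the basic helix-loop-helix transcription factor Scleraxis, and 3 Scx+/+ littermates, all C57BL/6 at embryonic day 15.5 and with no treatment named. Scx is needed for heart valve and tendon formation, and the comparison asks which genes differ in remodeling valves without it. The dissected regions held the mitral, tricuspid and aortic valves and some myocardium, with 1 library per embryo. Cells were not sorted, so fewer cells of a type and less RNA per cell cannot be told apart. Whole-gene Scx was 18.6 to 82.9 RPKM in Scx-/- and 26.0 to 58.3 RPKM in Scx+/+, which does not check the genotype labels. The study checked the genotypes by the first exon of Scx, which was not analysed here, and libraries are named by their labels.

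Immediate early genes are transcribed within minutes of a growth factor, stretch, injury or stress signal, without new protein synthesis, from factors already bound at their promoters such as SRF with its Elk partners and CREB. Fos and Jun proteins pair through their leucine zippers to form AP-1, which binds DNA sites of the form TGANTCA. Jun proteins can also pair among themselves and Fos proteins cannot. Egr1 is a zinc finger factor, Nr4a1 an orphan nuclear receptor, Atf3 a stress-induced bZIP protein that often represses, and Ier2 a small nuclear protein. Handling of tissue is known to induce them too.

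The 250 bases before the start site are shown for 3 of the genes, Junb because its values in the genotypes did not overlap, and Fos and Nr4a1 because they varied widely between libraries. RefSeq start sites in the build GRCm38.p6 were matched for 6 of the 8 measured genes. Junb is shown from chr8:84978749-84978998 on the minus strand, Fos from chr12:85473640-85473889 on the plus strand and Nr4a1 from chr15:101266596-101266845 on the plus strand, each 5′ to 3′ along the gene. Capitals mark TGACG, the core of the cyclic AMP response element bound by CREB, CANNTG, the E-box of basic helix-loop-helix factors such as Scx, and TATAAA, all on either strand.
Junb: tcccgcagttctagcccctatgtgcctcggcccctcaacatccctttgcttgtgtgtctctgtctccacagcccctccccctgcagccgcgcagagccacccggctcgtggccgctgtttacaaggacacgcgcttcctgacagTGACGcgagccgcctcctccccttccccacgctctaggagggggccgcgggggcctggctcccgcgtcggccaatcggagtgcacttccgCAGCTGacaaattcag
Fos: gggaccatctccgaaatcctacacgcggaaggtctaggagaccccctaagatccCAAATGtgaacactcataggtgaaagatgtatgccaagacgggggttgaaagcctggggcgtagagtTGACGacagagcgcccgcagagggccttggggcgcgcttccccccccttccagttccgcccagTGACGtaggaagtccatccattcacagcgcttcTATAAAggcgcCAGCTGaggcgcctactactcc
Nr4a1: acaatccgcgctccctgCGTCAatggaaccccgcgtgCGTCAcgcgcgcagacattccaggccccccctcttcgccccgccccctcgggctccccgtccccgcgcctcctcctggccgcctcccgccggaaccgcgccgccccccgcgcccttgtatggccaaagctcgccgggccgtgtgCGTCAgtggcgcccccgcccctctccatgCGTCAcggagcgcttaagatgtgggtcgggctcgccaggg
TGACG was found in 4 of the 6 promoters (Atf3, Fos, Junb and Nr4a1), with 4 sites in Nr4a1, 2 in Fos and 1 each in Junb and Atf3, and in 17.8% of all 32851 RefSeq promoters of this length. The E-box was found in 5 of the 6, Nr4a1 being the exception, and in 66.2% of all promoters. The 250 bases of these 6 genes held no match to TGANTCA or the CArG box of SRF, which 6.75% and 1.47% of all promoters held. TGANTCA was searched with any middle base, so it is looser than an AP-1 site. Bases farther upstream, and the promoters of Ier2 and Egr1, were not searched. A match describes letters in this window and is not a test of binding.

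In these embryos, immediate early genes fell into a group of moderate level and a group of low level. Levels are in RPKM, reads scaled to exon length and library depth, which are per length and can be compared between genes. Jun was at a mean of 8.80, Atf3 at 8.27 and Jund at 5.59 RPKM over the 6 libraries. Nr4a1 followed at 1.54, Ier2 at 1.15, Fos at 0.775, Junb at 0.618 and Egr1 at 0.344 RPKM. Jun stood at the 69.7th percentile of all genes by mean level and Egr1 at the 8.77th, and the median over all genes was 3.43 RPKM. Jund exceeded Nr4a1 3.62-fold, the widest gap between neighbours in this order.

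**Figure D1:**
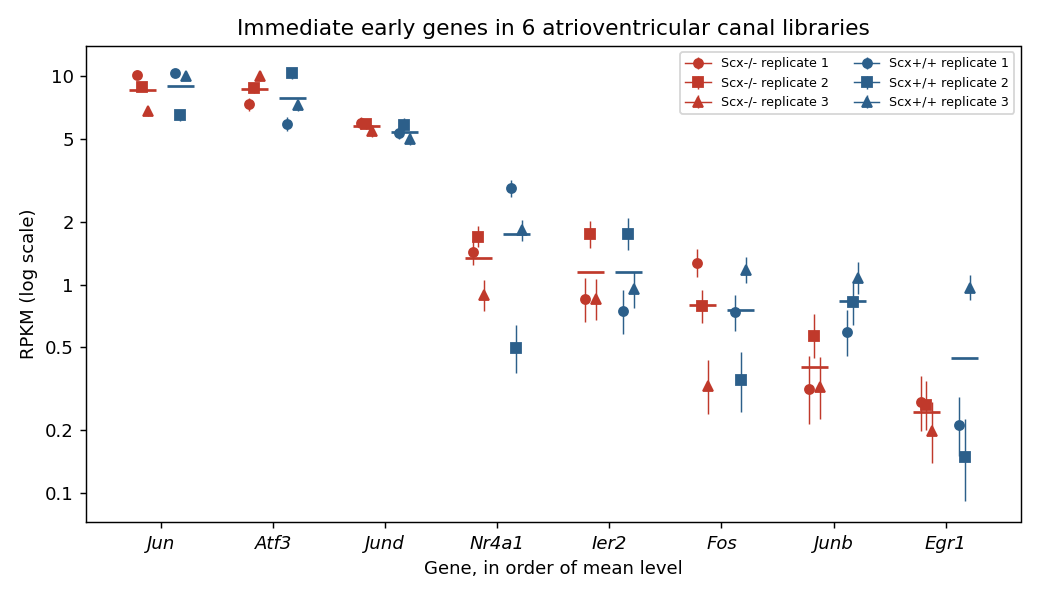
RPKM on a log axis of the 8 measured genes in order of mean level, in the 3 Scx-/- (red) and 3 Scx+/+ (blue) libraries. Symbols are replicates, vertical bars are 95% exact Poisson intervals from recovered reads, covering counting error only, and short lines are genotype means. Jun, Atf3 and Jund lie between 5.01 and 10.4 RPKM, and the other 5 genes between 0.149 and 2.90 RPKM.

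Neighbours in the order were compared within libraries by an exact sign-flip permutation test of the log2 ratio, two-sided, over 7 pairs. Jun against Atf3, Nr4a1 against Ier2, Ier2 against Fos and Fos against Junb did not differ beyond the spread between libraries, with p from 0.21875 to 0.71875 in the exact test. Atf3 was above Jund, Jund above Nr4a1 and Junb above Egr1 in 6 of 6 libraries, each at p = 0.03125 in the exact test, the smallest that 6 libraries allow, and 0.0729 after Benjamini-Hochberg adjustment. The order and so the pairs were taken from the same 6 libraries, so these p-values are no independent support for the order.

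Between genotypes, none of the 8 measured genes was called. With limma on log2(RPKM + 0.1), fitted over all 18810 genes, 0 of the 8 reached an unadjusted p below 0.05, the threshold of the study, where 3.89% of all genes did, 1.06% lower and 2.82% higher in Scx-/-. limma is not the test the study used, and the study's kind of test called Junb. At an adjusted p below 0.05 the count was 0 for the 8 and for all genes. Without the intensity trend limma called 1 of the 8, Junb, which was lower in Scx-/-, where it called 3.43% of all genes, 1.27% lower and 2.16% higher. Of the 8 log2 fold changes (Scx-/- over Scx+/+), 4 were below 0 and 4 above, with a median of -0.016 beside 0.10 over all genes, of which 11996 lay above 0.

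**Figure D2:**
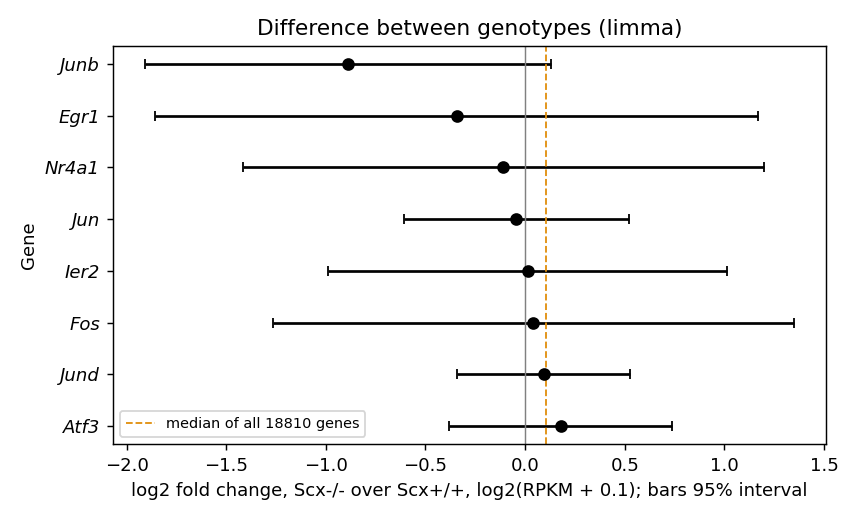
Log2 fold change of Scx-/- over Scx+/+ on the log2(RPKM + 0.1) scale for the 8 genes, from limma, with 95% intervals. The dashed line is the median of all genes, 0.10. All 8 intervals include 0, and Junb lies farthest from it at -0.89.

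Junb encodes a Jun protein that activates AP-1 targets less strongly than Jun and can restrain growth. The gene (ENSMUSG00000052837) spans positions 87500811 to 87502617 of chromosome 8, minus strand, in the build mm9 used for all gene positions here, as a single exon of 1807 nt. Junb was 0.317, 0.570 and 0.324 RPKM in Scx-/- replicates 1 to 3 and 0.590, 0.822 and 1.08 RPKM in Scx+/+ replicates 1 to 3. The genotypes did not overlap, although Scx-/- replicate 2 and Scx+/+ replicate 1 nearly met. The 6 values rested on 30, 69, 35, 64, 69 and 134 reads, and the exact Poisson intervals of those neighbouring libraries, 0.443 to 0.721 and 0.454 to 0.753 RPKM, overlapped almost entirely.

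Scx-/- libraries held 0.404 ± 0.144 RPKM of Junb (SD, n = 3) and Scx+/+ libraries 0.831 ± 0.246 RPKM (SD, n = 3), 0.486 times as much in Scx-/-. On the log2 scale the difference was -0.89 (SE 0.45, 95% interval -1.91 to 0.13, adjusted p = 0.967 from limma), and its unadjusted p of 0.0799 from limma ranked 1262nd of 18810 genes. The exact permutation test of the genotypes gave p = 0.1, two-sided, the smallest that 3 against 3 libraries allow. Among all genes, the genotypes did not overlap in 9.5%, with Scx-/- lower in 2.31% and higher in 7.19%. Whether Junb passed an unadjusted p below 0.05 depended on the test and on single libraries. It passed in 5 of the 18 alternatives that could be run for it, among them the study's own kind of test, applied gene by gene to log2 RPKM. In limma its p was 0.0259 without an intensity trend, 0.0496 with quantile normalization, 0.0288 without Scx-/- replicate 2 and 0.0416 without Scx+/+ replicate 1. The adjusted p over the alternatives ran from 0.620 to 1. The log2 fold change stayed below 0 in all 18.

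Jun and Jund, the other Jun genes, did not pass the threshold and overlapped between genotypes. Jun (ENSMUSG00000052684, chromosome 4 from 94715725 to 94718913, 1 exon) is the main activating partner of Fos. It was 10.2, 8.92 and 6.78 RPKM in Scx-/- and 10.4, 6.50 and 10.04 RPKM in Scx+/+ libraries, in replicate order. The lowest values were Scx+/+ replicate 2 and Scx-/- replicate 3, 1 in each genotype, and the log2 fold change was -0.04 (95% interval -0.61 to 0.52). Jun shares 232 exonic bases with the antisense gene BC042782, and the counting is not stated to use strand.

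Jund (ENSMUSG00000071076, chromosome 8 from 73221638 to 73224515, 1 exon) is the Jun gene that most resting cells express steadily. It was 5.98, 5.89 and 5.45 RPKM in Scx-/- and 5.37, 5.85 and 5.01 RPKM in Scx+/+ libraries. Jund varied least of the 8 genes, by 1.19-fold from lowest to highest, and the genotypes overlapped. The log2 fold change of 0.09 had a 95% interval of -0.34 to 0.53 in limma, and its sign turned, to -0.015, with the median of each library set to 0. Jund contains, on the opposite strand, all 543 exonic bases of Gm11175, listed at 2.79 to 5.39 RPKM, so that reads of these genes cannot be told apart if strand was not used.

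Within the summed RPKM of Jun, Junb and Jund, Junb made up 1.92%, 3.71% and 2.58% in Scx-/- and 3.62%, 6.24% and 6.70% in Scx+/+ libraries. This share does not depend on how libraries are scaled against each other. The share was 2.74% ± 0.900 in Scx-/- and 5.52% ± 1.67 in Scx+/+ (SD, n = 3 each), and Scx-/- replicate 2 and Scx+/+ replicate 1 overlapped. The exact permutation test, two-sided, gave p = 0.2, and with a smallest possible p of 0.1 it could not have passed 0.05, so a difference is neither shown nor excluded. Jun took 49.3% to 63.5% and Jund 31.1% to 44.4% of the sum over the 6 libraries.

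Fos, which pairs with Jun to give AP-1 its strongest DNA binding, was at a low level in both genotypes. The gene (ENSMUSG00000021250) has 4 exons on chromosome 12 from 86814840 to 86818223. Fos was 1.28, 0.787 and 0.327 RPKM in Scx-/- and 0.737, 0.348 and 1.18 RPKM in Scx+/+ libraries, from 38 to 190 reads. Both genotypes spanned nearly the whole range, 3.90-fold, and the log2 fold change was 0.04 (95% interval -1.27 to 1.35 in limma). Its sign turned to -0.069 with the median of each library set to 0 and to -0.085 with quantile normalization. Summed Jun, Junb and Jund exceeded Fos in every library, and Fos amounted to 2.61% to 7.74% of that sum.

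Egr1 (ENSMUSG00000038418, 2 exons, chromosome 18 from 35020861 to 35024638) responds to growth factors and flow and activates matrix and growth factor genes. It was 0.273, 0.266 and 0.198 RPKM in Scx-/- and 0.212, 0.149 and 0.969 RPKM in Scx+/+ libraries, from about 21 to 206 reads. Scx+/+ replicate 3 stood far above the other 5 libraries, which lay within 0.149 to 0.273 RPKM. The log2 fold change of -0.34 (95% interval -1.85 to 1.17 in limma) became 0.30 without that library (unadjusted p = 0.345, adjusted p = 1 from limma). The reads of Egr1 are approximate, because its exon length in the annotation used here did not give whole reads.

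Nr4a1 (ENSMUSG00000023034, 7 exons, chromosome 15 from 101097277 to 101105223) is induced by cyclic AMP and calcium signals. It was 1.44, 1.70 and 0.893 RPKM in Scx-/- and 2.90, 0.496 and 1.83 RPKM in Scx+/+ libraries. Scx+/+ libraries held both the highest and the lowest value, 5.85-fold apart, and the log2 fold change was -0.11 (95% interval -1.42 to 1.20 in limma). Without Scx+/+ replicate 2 it was -0.78 (unadjusted p = 0.0863 in limma), and without Scx+/+ replicate 1 it was 0.39.

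Atf3 (ENSMUSG00000026628, 4 exon blocks, chromosome 1 from 192994175 to 193007219) was 7.32, 8.79 and 10.02 RPKM in Scx-/- and 5.89, 10.3 and 7.26 RPKM in Scx+/+ libraries. The genotypes overlapped, with the 2 highest values in Scx+/+ replicate 2 and Scx-/- replicate 3. The log2 fold change was 0.18 (95% interval -0.38 to 0.74 in limma). It was 0.40 without Scx+/+ replicate 2 and -0.0033 without Scx+/+ replicate 1.

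Ier2 (ENSMUSG00000053560, 1 exon) lies 314 kb from Junb on chromosome 8, from 87185230 to 87186751. It was 0.854, 1.75 and 0.858 RPKM in Scx-/- and 0.744, 1.75 and 0.949 RPKM in Scx+/+ libraries. Replicate 2 of each genotype was the high library, and the other 4 lay within 0.744 to 0.949 RPKM. The genotype means were 1.15 RPKM in both, with a log2 fold change of 0.01 (95% interval -0.99 to 1.02 in limma), which turned to -0.097 with the median of each library set to 0. Replicate 2 of each genotype was also the library that expressed Xist (21.7 and 12.7 RPKM, against the fill-in value in the other 4), and both were above all other libraries for 3.86% of all genes and below them for 4.42%. This split was singled out after the values were seen. With sex, taken from Xist, as a covariate, the log2 fold change of Ier2 stayed at 0.01, with an SE of 0.35 against 0.44 without it. The effect of sex itself on Ier2 was not tested.

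A movement shared by several of these genes crossed the genotypes. Fos, Jun, Egr1 and Nr4a1 each had their 2 lowest values in Scx-/- replicate 3 and Scx+/+ replicate 2, and Atf3 had its 2 highest there. For Egr1 this order lay within counting error. Scx-/- replicate 3 was 0.198 RPKM (exact Poisson interval 0.139 to 0.273) and Scx+/+ replicate 1 was 0.212 RPKM (0.151 to 0.289), from about 37 and 39 reads. For all genes, Scx-/- replicate 3 and Scx+/+ replicate 2 both lay below the other 4 in 18.3% and above them in 10.7%. Clustering of all genes on 1 minus the correlation with average linkage first separated these 2 libraries from the other 4, so they stand apart over the whole table and not in these genes alone. Jund, Junb and Ier2 did not follow the split.

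The same 2 libraries held the highest sum of cardiomyocyte markers (Myh6, Myh7, Tnnt2, Actc1, Nppa and Myl7), 14222 and 16164 RPKM against 9742 to 12865 RPKM in the others. The sum was carried by Myh6, Tnnt2 and Actc1, which had their 2 highest values there. The other 3 markers did not share this, since in Scx-/- replicate 3 Myh7 (2148 RPKM), Nppa (453 RPKM) and Myl7 (355 RPKM) were each the second lowest of the 6 libraries. Of 11 hypoxia-responsive genes, 7 (Ldha, Pgk1, Bnip3, Adm, Egln3, Ankrd37 and P4ha1) were above the other 4 libraries there and 1, the glucose transporter Slc2a1, below them. Below them too were 3 of 8 valve mesenchyme markers (Sox9, Vcan and Col3a1) and 2 of 4 epicardial markers (Upk3b and Tbx18). The other valve mesenchyme markers did not share this. Postn was highest of the 6 libraries in Scx-/- replicate 3, at 387 RPKM, and was 271 RPKM in Scx+/+ replicate 2. Summed valve mesenchyme markers were 609 and 471 RPKM in these libraries, within the 405 to 634 RPKM of all 6. Of 8 erythroid markers, 2 (Hbb-y and Slc4a1) were below the other 4 libraries there and 0 above. Hbb-y was 1.16 RPKM in Scx-/- replicate 3 and 1.99 RPKM in Scx+/+ replicate 2, and 49.6 to 125 RPKM in the other 4. Summed erythroid markers were 7225 and 7882 RPKM in these libraries, within the 6207 to 11088 RPKM of all 6. Scx+/+ replicate 2 also had 56.9% of its RPKM sum in its 10 most abundant genes, against 30.7% to 43.9% in the others. The part of these features in the levels of the immediate early genes was not tested. With both libraries left out, a choice made after seeing the data, 0 of the 8 genes were called among 1587 of all genes, and the log2 fold changes were -0.53 for Nr4a1, -0.64 for Egr1, -0.096 for Jun, 0.095 for Fos and -0.77 for Junb.

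**Figure D3:**
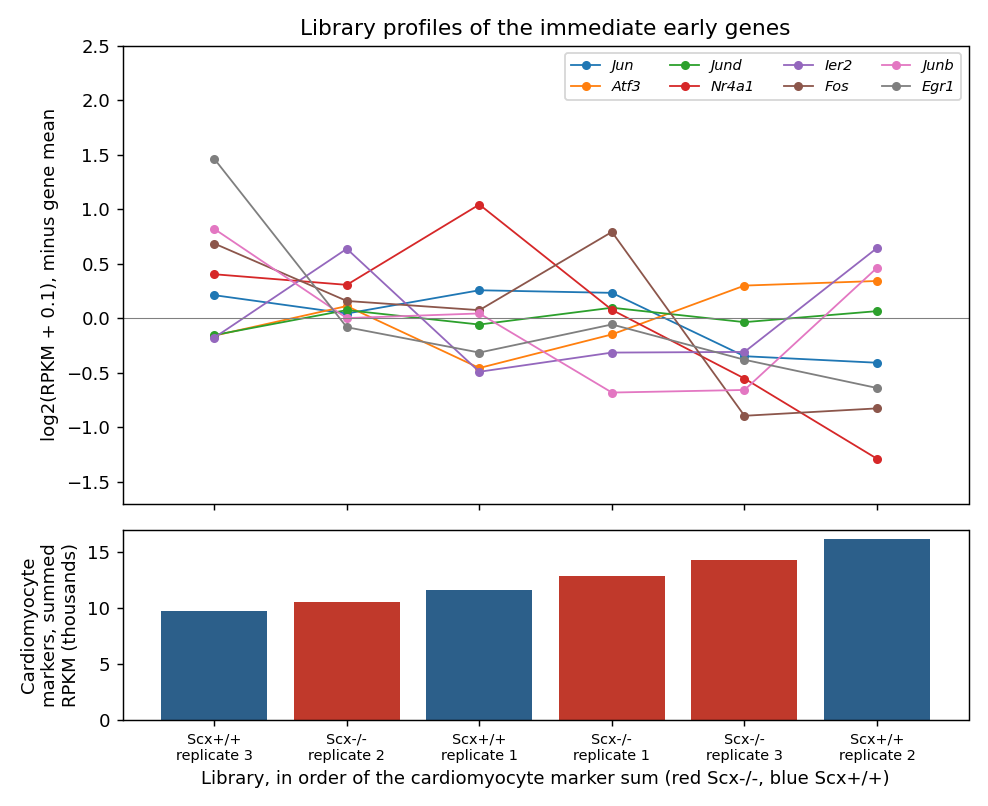
Top, log2(RPKM + 0.1) of each gene minus its mean over the 6 libraries. Bottom, summed RPKM of 6 cardiomyocyte markers, with libraries in order of that sum. In Scx-/- replicate 3 and Scx+/+ replicate 2, on the right with 14222 and 16164 RPKM, Fos, Jun, Egr1 and Nr4a1 have their 2 lowest values and Atf3 its 2 highest. For Egr1, Scx-/- replicate 3 and Scx+/+ replicate 1 differ by less than counting error.

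The highest library exceeded the lowest by a median of 2.88-fold over the 8 genes and 2.06-fold over all genes, and the median SD within a genotype was 0.48 on the log2 scale against 0.38. The median level of the 8, 1.35 RPKM, was below that of all genes. Spread and counting error were both uneven among them. The coefficient of variation over the 6 libraries ran from 6.78% for Jund to 89.8% for Egr1, where counting of reads alone gives 3.25% and about 12.2%. It was 51.5% for Fos, 47.8% for Junb and 54.1% for Nr4a1, where counting alone gives 9.54%, 12.2% and 6.55%. Junb, Jun, Jund and Ier2 are single-exon genes, as are 881 of 13541 protein-coding genes, and the GC content of the exons was 62.6% in Junb, 62.7% in Jund and 60.9% in Ier2, where the median protein-coding gene had 49.6%. Removing the trend of each library on exon length and GC content left Junb at -0.96 (unadjusted p = 0.0609 in limma).

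Among the protein-coding genes nearest to the mean profile of the 8, by root mean square difference in centred log2 RPKM over 6 libraries among 10777 genes whose mean reached 1 RPKM, were Adamts15 (0.040), Fem1c (0.058), Vmac (0.068) and Ankrd46 (0.070). Adamts15, a secreted metalloprotease that cleaves versican, was 2.17, 2.44 and 1.70 RPKM in Scx-/- and 2.22, 1.98 and 2.76 RPKM in Scx+/+ libraries. Its log2 fold change was -0.14, and its likeness to the profile is how it was chosen.

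Among 43 other rapid response genes, 38 were measured and 0 were called in limma, with a median log2 fold change of 0.07. They ranged from Socs3, a feedback inhibitor of cytokine signaling, at a mean of 0.298 RPKM to Plk2, a kinase, at 91.1 RPKM. Socs3 and Mcl1, a survival protein of the Bcl2 family, had the smallest p of the list. Socs3 was 0.403, 0.604 and 0.237 RPKM in Scx-/- against 0.138, 0.313 and 0.0949 RPKM in Scx+/+, the last being the fill-in value. Mcl1 was 25.3 to 29.1 RPKM in Scx-/- and 21.2 to 24.5 RPKM in Scx+/+, without overlap but with a log2 fold change of 0.23 (unadjusted p = 0.178 in limma). Fosl1 and Fosl2, the Fos-related genes of the list, were at 0.278 to 1.32 and 1.14 to 2.10 RPKM and overlapped between genotypes. Without Scx-/- replicate 3, and likewise without Scx+/+ replicate 2, 1 of the 38 was called.

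Of 16 other bZIP partners measured, in 18 rows, 1 was called lower in limma and 0 higher. It was Atf7 (ENSMUSG00000052414), a CRE-binding relative of Atf2, at 0.879, 0.844 and 0.433 RPKM in Scx-/- and 1.69, 1.46 and 1.68 RPKM in Scx+/+ libraries. All 3 Scx-/- libraries were lower, and the log2 fold change reached -1.11 (SE 0.37, unadjusted p = 0.0156, adjusted p = 0.967 from limma). The table lists a second row for Atf7 (ENSMUSG00000071584), at the fill-in value of 0.0949 RPKM in 3 of the 6 libraries and at 0.816 to 4.41 RPKM in the others, so the split of reads between the rows is uncertain.

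The 25 upstream factors, kinases and corepressors, among them Srf, Elk1, Creb1, the ERK and p38 kinases and the Egr corepressors Nab1 and Nab2, held 0 calls in limma, with or without the trend, with a median log2 fold change of 0.03. Mef2d, a factor that binds immediate early promoters in muscle and nerve cells, had the smallest p (0.108 in limma), at 2.16 to 3.04 RPKM in Scx-/- and 3.10 to 4.14 RPKM in Scx+/+. Elk3, an SRF partner, was next at a log2 fold change of -0.29 (unadjusted p = 0.188 in limma).

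Of 15 known AP-1 and Egr1 target genes measured, 1 was called higher in limma and 0 lower. It was Plau, urokinase, a protease that activates plasmin, at 3.28, 3.18 and 1.73 RPKM in Scx-/- and 1.78, 0.800 and 1.72 RPKM in Scx+/+ libraries. The genotypes overlapped, and its log2 fold change of 0.91 (unadjusted p = 0.0493, adjusted p = 0.967 from limma) did not hold up, as the list held 0 calls in 11 of 19 alternatives. Among these were a pseudocount of 0.01, limma without the trend, sex as a covariate, and leaving out Scx-/- replicate 2, Scx+/+ replicate 1 or Scx+/+ replicate 3. The list's median log2 fold change was 0.05, and it was 0.07 for the 11 hypoxia genes, of which 0 were called in limma. Vegfa, an endothelial growth factor, and Pgk1, a glycolytic enzyme, had the smallest p of the hypoxia list, at log2 fold changes of 0.14 and 0.15.

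Heat shock genes, the chaperones that cells raise under protein damage, held 1 call of 10 in limma. Of the 10, 4 were lower in Scx-/-, and the median log2 fold change was 0.12. Hsph1, a chaperone of the Hsp110 family, was 2.40, 2.06 and 2.21 RPKM in Scx-/- and 3.39, 3.70 and 3.45 RPKM in Scx+/+ libraries. It was lower in all 3 Scx-/- libraries, at a log2 fold change of -0.64 (SE 0.23, unadjusted p = 0.0227, adjusted p = 0.967 from limma). Hsp90aa1 went the other way without overlap, at 221 to 247 RPKM in Scx-/- and 165 to 208 RPKM in Scx+/+ (unadjusted p = 0.0911 in limma). The inducible Hspa1a and Hspa1b, near-identical copies whose reads cannot be firmly assigned, were at 0.463 to 1.74 and 0.454 to 1.86 RPKM, and like Ier2 had their 2 highest values in replicate 2 of each genotype.

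Markers of the valve region and its neighbours were present in every library, with valve mesenchyme markers summing to 405 to 634 RPKM, endothelial markers to 115 to 143 RPKM and cardiomyocyte markers to the far larger sums given above. Markers called in limma were Lum in the valve mesenchyme (1 of 8, higher, unadjusted p = 0.00332), Aldh1a2 in the epicardium (1 of 4, higher, unadjusted p = 0.0430) and Cd68 in macrophages (1 of 6, higher, unadjusted p = 0.0290). Of all genes, 3.89% were called. Lum does not stand for its list, since 5 of the 8 valve mesenchyme markers were lower in Scx-/-, with a median log2 fold change of -0.02. Without overlap, Col1a1 was lower (7.34 to 8.09 against 8.36 to 15.8 RPKM), and Lum and Prrx1 were higher. None of the endothelial, cardiomyocyte, smooth muscle and erythroid markers was called in limma. The smallest p were those of Cdh5 and Kdr in the endothelium (log2 fold changes of -0.40 and -0.33), Myh7 and Myh6 in cardiomyocytes (-0.33 and -0.30), Tagln and Cnn1 in smooth muscle (0.52 and 0.23) and Alas2 in erythroid cells (0.69). Of these, Myh7, a myosin heavy chain, was 1923 to 2313 RPKM in Scx-/- and 2380 to 2826 RPKM in Scx+/+, and Tagln, an actin-binding protein, was 60.2 to 112 RPKM in Scx-/- and 47.8 to 56.7 RPKM in Scx+/+, both without overlap. Cd68 was low, at 0.639, 1.54 and 0.812 RPKM in Scx-/- and 0.358, 0.0949 and 0.476 RPKM in Scx+/+ libraries, from at most 130 reads. Its value in Scx+/+ replicate 2 is the fill-in value, so its reads there are not known. The sums of macrophage markers were 7.44 to 13.3 RPKM in Scx-/- and 6.42 to 11.7 RPKM in Scx+/+, and those of smooth muscle and erythroid markers overlapped as well. The epicardial list held 0 calls in 12 of 19 alternatives, among them the median of each library set to 0, quantile normalization, and leaving out any 1 library except Scx+/+ replicate 2. The macrophage list held 0 calls in 9 of 19, among them removal of the exon length and GC content trend, and leaving out Scx-/- replicate 2, Scx-/- replicate 3 or Scx+/+ replicate 2.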

How the data were processed

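For 6 libraries the authors aligned reads to mm9 with TopHat 1.4.1, counted reads in Ensembl exons with easyRNASeq and deposited RPKM. Genes were retained if some library reached roughly 50 reads, and the lowest values were replaced by a common fill-in, 0.0949 in the table. That filter can remove a low gene, and RPKM is not a count, so no count test was run. Strand use is not given in the sources used here.

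Identifiers were matched to the GENCODE annotation of mm9 (18695 of 18810). Reads were recovered from RPKM, exon length and a depth solved for per library, 46429970 to 68571014 reads, and 98.5% to 98.6% of values under 1000 reads were whole within 0.1 read. Intervals cover counting error only. limma 3.58.1 (R 4.3.3) compared genotypes on log2(RPKM + 0.1), which understates changes of low genes. An intensity trend was fitted and p-values were adjusted over 18810 genes by Benjamini-Hochberg. A call is an unadjusted p below 0.05, as in the study, whose one-way ANOVA was an alternative because limma pools the spread over genes. The limma step was run on simulated data with the gene means and fitted spread of this table. The simulation held no differences between whole libraries, so it checks that the step runs correctly and not how well it suits these libraries. Other steps used Python 3.11.15 with scipy 1.17.1, pandas 2.3.3, numpy 2.4.6 and matplotlib 3.10.9.

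The genes, the 13 other lists and the alternatives were chosen with earlier results of these data known. Named were all measured immediate early genes, from each list at most 4 called genes or, with none called, the 2 of smallest p, the 5 nearest profiles and Scx. Of these, 2 genes are not reported here. Plk2, Fosl1, Fosl2, Hspa1a, Hspa1b, Hsp90aa1, Col1a1, Prrx1, Gm11175, Xist and the genes listed for 2 libraries that stood apart were picked after their values were seen. Alternatives were pseudocounts of 0.01 and 1, a mean of at least 1 RPKM, no trend, gene-wise ANOVA on log2 RPKM and on RPKM, the median of each library set to 0, quantile normalization, the replicate block, sex, removal of a trend in exon length and GC content alone or with the block, and each library left out.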

Additional observations from a re-analysis of the deposited data

How the results depend on the processing

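The count of called immediate early genes was 0 in limma as reported and under 14 of 19 alternatives, 18 of them planned, and 1, Junb each time, without an intensity trend, in gene-wise ANOVA on log2 RPKM (unadjusted p = 0.0482 for Junb, with 862 genes called in all), with quantile normalization and in 2 of the fits with a library left out, whose range was 0 to 1. All genes called numbered 731 as reported, 539 to 1549 with each library left out, 485 with the replicate block and the exon length and GC content trend removed together, and 1587 without Scx-/- replicate 3 and Scx+/+ replicate 2. The share called higher in Scx-/- was 72.6% as reported, 43.5% with the median of each library set to 0, 49.9% with quantile normalization and 45.2% with the exon length and GC content trend removed. Gene-wise ANOVA on log2 RPKM called 1 of the other rapid response genes, 1 of the upstream factors, 2 heat shock genes and 0 of the AP-1 and Egr1 targets. The heat shock list held 2 calls without Scx+/+ replicate 1 or without Scx+/+ replicate 2 and 0 with the replicate block, the bZIP list 2 and the valve mesenchyme list 3 without Scx+/+ replicate 2, and the endothelial list 2 without Scx-/- replicate 1 or with the median of each library set to 0. The median log2 fold change of the 8 genes ran from -0.31 to 0.13 with each library left out, the lowest being without Scx+/+ replicate 2.

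The sign of the fold change turned under some alternatives for 7 of the 8 genes, Junb being the exception. With the median of each library set to 0, Fos was -0.069, Jund -0.015 and Ier2 -0.097, and Fos was -0.085 with quantile normalization. With the exon length and GC content trend removed, with or without the replicate block, Fos was -0.098 and Ier2 -0.055. With each library left out, Fos ran from -0.36 to 0.50, Jun from -0.26 to 0.12, Egr1 from -0.75 to 0.30, Ier2 from -0.30 to 0.34, Atf3 from -0.0033 to 0.40 and Nr4a1 from -0.78 to 0.39. The cause was not tested. Junb, Fos and Egr1 have means under 1 RPKM and are absent from the fit of genes over that level, and single libraries of each rest on 21 to 38 reads.

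Whether replicate numbers pair the embryos is not stated in the labels. Deviations of same-numbered libraries from their genotype means correlated at 0.092, -0.22 and -0.19 over 13827 genes. Those of Scx-/- replicate 3 and Scx+/+ replicate 2 correlated at 0.32. The deviations within a genotype of 3 libraries sum to 0, so these values cannot exclude pairing. With the number as a block, limma called 573 genes and 0 of the 8, with Junb at an unadjusted p of 0.120 and an adjusted p of 1.000.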

Other observations

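The wider set of rapid response genes split in Scx-/- replicate 3 and Scx+/+ replicate 2 in both directions. Of 38 measured, 9 had their 2 lowest values there (Fosl1, Nr4a2, Klf10, Dusp2, Zfp36l1, Gadd45b, Plk2, Pim1 and Nfil3) and 10 their 2 highest (Ier3, Klf2, Dusp5, Myc, Ctgf, Gadd45g, Sgk1, Maff, Csrnp1 and Errfi1). Nr4a2, the closest relative of Nr4a1 measured here, was 0.124 RPKM and the fill-in value of 0.0949 RPKM in these libraries and 0.305 to 0.719 RPKM in the other 4. Of the hypoxia genes, Egln3, an oxygen sensor of the HIF pathway, was 21.9 and 18.7 RPKM there and 7.06 to 7.24 RPKM in the other 4. Ankrd37 was 10.8 and 9.06 RPKM against 4.05 to 5.82 RPKM. These libraries are 1 of each genotype, they were singled out after the values were seen, and the difference was not tested.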
